A study of Homo sapiens with 6 samples.

Results

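The genes described here are those for the chains of integrins and laminins, taken as a fixed list of 35 gene symbols: 25 integrin genes (17 alpha and 8 beta chains) and 10 laminin genes (5 alpha, 3 beta and 2 gamma chains). All 35 symbols were matched to 1 row each among the 60708 gene identifiers of the count files. The cells were U2OS, an established human osteosarcoma line labelled wild type, grown in serum-containing medium. The controls received the solvent DMSO, and the other group received PDD00017273 at 25 µM, a compound that blocks PARG, the glycohydrolase that removes chains of ADP-ribose from proteins. Treatment lasted 4 days in either group, and the design text names biological triplicates, so 3 libraries stand on each side, called DMSO and PARGi here.

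Integrins are receptors made of 1 alpha and 1 beta chain that join the matrix outside the cell to the actin cytoskeleton inside it, and the pair decides which ligand is bound. Laminins are trimers of 1 alpha, 1 beta and 1 gamma chain that polymerise into the sheet of the basement membrane and are themselves ligands of several integrins. Cells of the bone lineage are known for collagen- and RGD-binding integrins, whereas laminins are best known from epithelia, vessels, muscle and nerve. In these libraries the collagen-binding alpha chains moved in opposite directions. Of these, ITGA2 and ITGA1 rose and ITGA11 fell, and every laminin chain that passed the test fell.

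The libraries held 60286931 to 80605145 counts, and TMM scaling factors ran from 0.9953 to 1.007. The labelled lineage was checked with marker genes. Mesenchymal markers were abundant (in DMSO, COL1A1 at 4374 CPM, that is, counts over the TMM-scaled library size, and VIM at 2476 CPM) and RUNX2 was at 83.3 CPM, COL1A2 at 13.0 CPM and ALPL at 4.68 CPM, while the osteoblast markers SP7 and BGLAP lay below 0.1 CPM. Of these 7 markers, COL1A2 (to 7.41 CPM, edgeR adjusted p = 1.60e-08) and RUNX2 (to 69.0 CPM, edgeR adjusted p = 4.96e-08) fell in PARGi. ALPL rose (to 5.52 CPM, edgeR adjusted p = 0.0364), and COL1A1 and VIM gave no call. The 6 leukocyte markers summed to between 1.49 and 1.98 CPM in DMSO and to between 1.54 and 1.93 CPM in PARGi, with PTPRC the only one at 1 CPM or more. The 4 platelet markers summed to 0.0315 CPM at most. The 4 endothelial markers summed to between 6.02 and 8.10 CPM in DMSO and to between 7.70 and 8.59 CPM in PARGi. The 6 epithelial markers summed to between 27.5 and 28.6 CPM in DMSO and to between 18.4 and 21.8 CPM in PARGi, most of it KRT14, and ESRP1 and GRHL2 were near 0. Of these 6 markers KRT14 fell (22.4 to 14.3 CPM, edgeR adjusted p = 1.33e-08) and CDH1 rose (0.718 to 1.14 CPM, edgeR adjusted p = 0.0104), while EPCAM (3.53 and 3.02 CPM) and KRT5 (1.33 and 1.14 CPM) gave no call.

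The promoters of 3 genes show the sequence around the start of the genes that moved most in their class. Among the genes that passed the test, ITGA2 had the largest rise of the integrins, ITGA11 the largest fall of the integrins, and LAMA4 the largest fall of the laminins. Each window runs from 250 bases before to 50 bases after the RefSeq transcript start (GRCh38.p14), written 5′ to 3′ on the gene's strand, and capitals mark the GC box GGGCGG or its reverse complement. The ITGA2 window lies at chr5:52989102-52989401 on the plus strand, that of ITGA11 at chr15:68432114-68432413 on the minus strand, and that of LAMA4 at chr6:112254518-112254817 on the minus strand.
ITGA2: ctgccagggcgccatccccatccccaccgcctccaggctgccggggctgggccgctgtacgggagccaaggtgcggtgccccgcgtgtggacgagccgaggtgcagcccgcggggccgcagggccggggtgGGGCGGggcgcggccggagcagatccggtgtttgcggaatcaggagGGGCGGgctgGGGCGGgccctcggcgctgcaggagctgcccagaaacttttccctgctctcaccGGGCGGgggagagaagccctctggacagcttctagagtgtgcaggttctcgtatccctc
ITGA11: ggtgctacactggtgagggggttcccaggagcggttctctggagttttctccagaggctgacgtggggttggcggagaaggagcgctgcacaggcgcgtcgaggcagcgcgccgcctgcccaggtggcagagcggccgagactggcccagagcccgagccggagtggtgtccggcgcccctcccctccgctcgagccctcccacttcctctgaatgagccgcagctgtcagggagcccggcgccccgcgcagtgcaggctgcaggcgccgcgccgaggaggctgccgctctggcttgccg
LAMA4: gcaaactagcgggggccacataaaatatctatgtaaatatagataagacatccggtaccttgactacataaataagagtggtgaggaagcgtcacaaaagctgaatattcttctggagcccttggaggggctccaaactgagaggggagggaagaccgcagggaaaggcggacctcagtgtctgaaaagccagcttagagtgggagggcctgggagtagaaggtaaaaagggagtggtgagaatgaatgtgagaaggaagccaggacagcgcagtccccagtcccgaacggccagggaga
The ITGA2 and ITGA11 windows are alike in base composition, at 72.7% and 72% G and C, and hold 27 and 29 CpG dinucleotides. The LAMA4 window is poorer, with 51.3% G and C and 8 CpG dinucleotides, below the median of 58.3% and 14 over all promoter windows. A GC box occurs 4 times in the ITGA2 window, the one nearest to the start beginning 9 bases before it, and in neither of the other windows. Of 27305 such windows, 44.6% hold at least 1 GC box. None of the 3 windows holds a TATA box (TATAAA, in 12% of all windows), a CCAAT box (CCAAT, in 35.7%), an AP-1 site (TGANTCA, in 7.76%) or a TEAD site (GGAATG, in 14%), each searched on both strands. A window was found for 25 members, and 14 of them hold a GC box in the first window listed.

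To compare genes with each other, levels were divided by exonic length and are given as CPM per kilobase. On this scale the beta chains were led by ITGB1, the common partner of most alpha chains, at 410 ± 5.04 CPM per kilobase in DMSO (SD, n = 3), above 99.7% of the tested protein-coding genes. ITGB5, which pairs with ITGAV to bind vitronectin, followed at 65.5 ± 1.31. ITGB8 (6.54 ± 0.230) and ITGB3 (5.58 ± 0.173), which also pair with ITGAV, came next in order. ITGB4, the partner of ITGA6 in hemidesmosomes, followed at 1.92 ± 0.101. The place of ITGB3 in this order is not settled, since it shares 51.6% of its exonic bases with an overlapping gene on its strand. Its level is too low if reads in the shared part were left uncounted. ITGB1 thus made up 83.7% ± 0.319 of the summed beta-chain level per kilobase in DMSO and 84.4% ± 0.203 in PARGi. The leukocyte chain ITGB2 stood at 0.186 ± 0.0107, and ITGB7 and ITGB6 at 0.0553 ± 0.0188 and 0.0249 ± 0.0114.

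Among the alpha chains the order in DMSO began with ITGA3, a laminin receptor chain, at 72.1 ± 2.30 CPM per kilobase, then ITGAV (35.2 ± 0.767), ITGA5, the fibronectin receptor chain (16.7 ± 0.0970), and ITGA7, the laminin receptor chain of muscle (15.6 ± 1.10). ITGA5 and ITGA7 were neighbours in this order within the spread of ITGA7. ITGA6, another laminin receptor chain (7.12 ± 0.215), ITGA11 (6.20 ± 0.294), ITGAE (2.10 ± 0.0509) and ITGA2 (2.04 ± 0.0825) came next, and then ITGA4 (0.969 ± 0.0793). ITGAE and ITGA2 lay within their spread of each other by exonic length. With the longest transcript in place of exonic length, ITGAE took 1.49% and ITGA2 0.842% of the summed alpha-chain level in DMSO. ITGA1, ITGA2B, ITGA10, ITGA9, ITGAX and ITGA8 ranged from 0.0589 for ITGA8 to 0.306 for ITGA1. ITGA3 alone took 45.3% ± 0.608 of the summed alpha-chain level in DMSO and ITGAV 22.1% ± 0.745. The summed alpha-chain level was 157, 158 and 163 CPM per kilobase in the 3 DMSO libraries. In the 3 PARGi libraries it was 169, 174 and 169, so that the groups did not overlap. Most of this difference came from ITGA3, which averaged 72.1 in DMSO and 81.5 in PARGi. The sum carries no test of its own.

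Laminin chains were expressed for all 3 positions of the trimer. In DMSO the beta chains LAMB1 (53.1 ± 1.14 CPM per kilobase) and LAMB2 (49.5 ± 1.49) and the gamma chain LAMC1 (45.7 ± 0.519) lay close together by exonic length. With the longest transcript in place of exonic length the beta chains stood further apart. LAMB1 then took 50.8% and LAMB2 40.5% of the summed laminin beta level in DMSO. The most abundant alpha chain, LAMA5, stood lower at 23.2 ± 0.861, followed by LAMB3 (11.8 ± 0.657) and LAMA1 (9.21 ± 0.359). LAMC3 (3.39 ± 0.0885), LAMA4 (3.04 ± 0.108), LAMA2 (1.33 ± 0.0515) and LAMA3 (0.156 ± 0.0269) made up the rest. By position, LAMA5 took 62.8% of the alpha level, LAMB1 46.4% and LAMB2 43.2% of the beta level, and LAMC1 93.1% of the level of the 2 gamma chains on the list. By exonic length the alpha chains together reached 36.9 ± 1.13 CPM per kilobase in DMSO. The beta chains reached 114 ± 1.20 and the 2 gamma chains on the list 49.1 ± 0.596. On this scale the alpha chains were the position with the lowest summed level. Sums with the longest transcript are not given here.

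**Figure D1:**
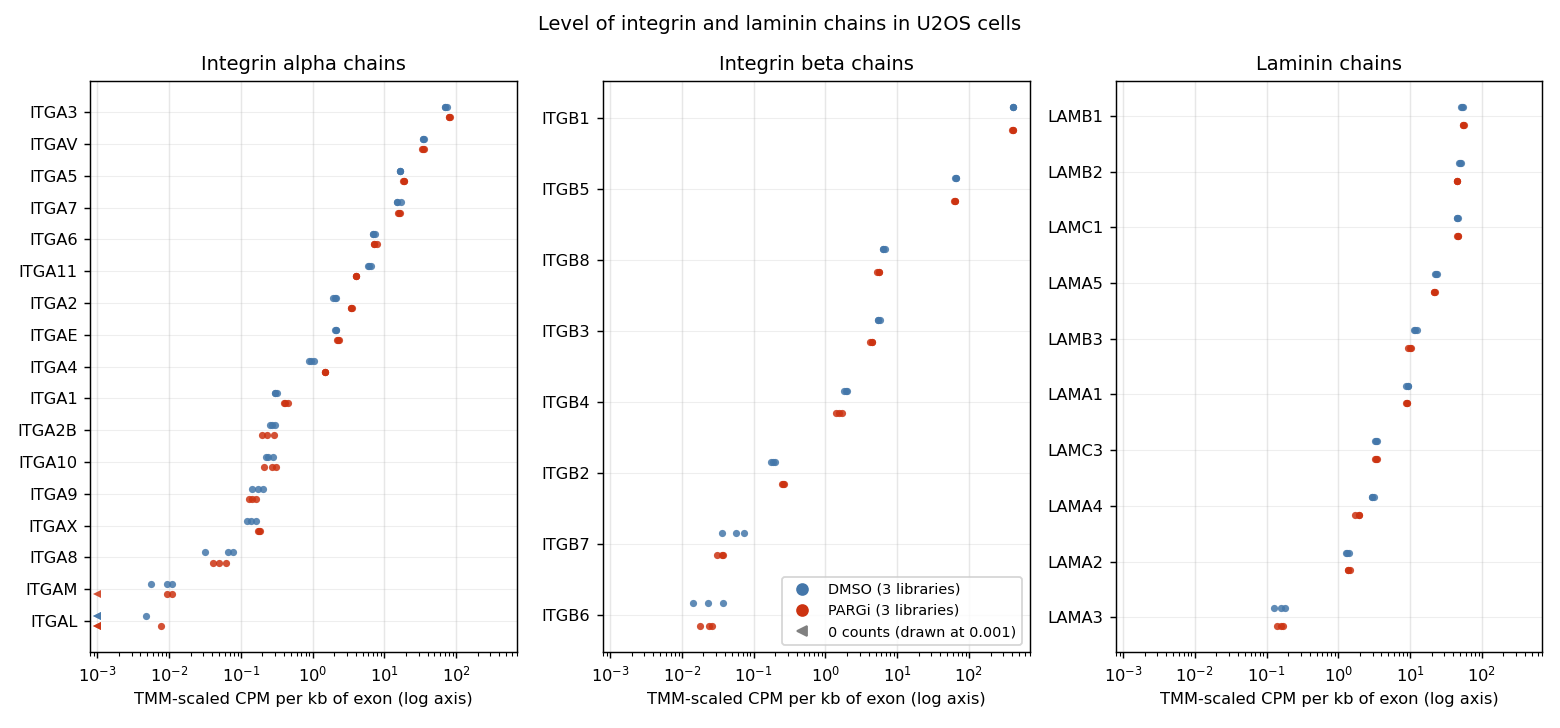
Each point is 1 library, with DMSO above and PARGi below the line of its gene, and the horizontal log axis gives the TMM-scaled CPM per kilobase of exon, with counts of 0 drawn as triangles at the left edge. The integrin alpha, integrin beta and laminin chains are ordered by level, with ITGB1 at 410 CPM per kilobase in DMSO at the top of the beta chains and ITGAL and ITGAM at the bottom of the alpha chains.

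Of the 35 genes, 32 had enough counts to be tested for a difference between PARGi and DMSO with edgeR's quasi-likelihood test over all 20409 genes tested, where an adjusted p (Benjamini-Hochberg) under 0.05 was called. Of 22 tested integrin genes, 10 were called, 6 higher and 4 lower, against 24.3% of all genes tested (13.2% higher, 11.0% lower). Of 10 laminin genes, 4 were called, all lower. The genes on this list are mostly abundant, and calls are more frequent among abundant genes: 34.7% of the genes that averaged 5 CPM or more were called, 20.8% higher and 13.9% lower. In that range 9 of 15 integrin genes and 4 of 9 laminin genes were called. The median log2 fold change was 0.011 for the integrins and -0.026 for the laminins, beside -0.0070 for all genes tested. The median absolute change was 0.24 for the integrins, 0.063 for the laminins and 0.11 for all genes tested. In 13 of the tested integrin genes and 5 of the laminin genes the groups did not overlap, as in 38.0% of all genes tested. In bulk RNA, fewer cells of a kind and less RNA per cell cannot be told apart.

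**Figure D2:**
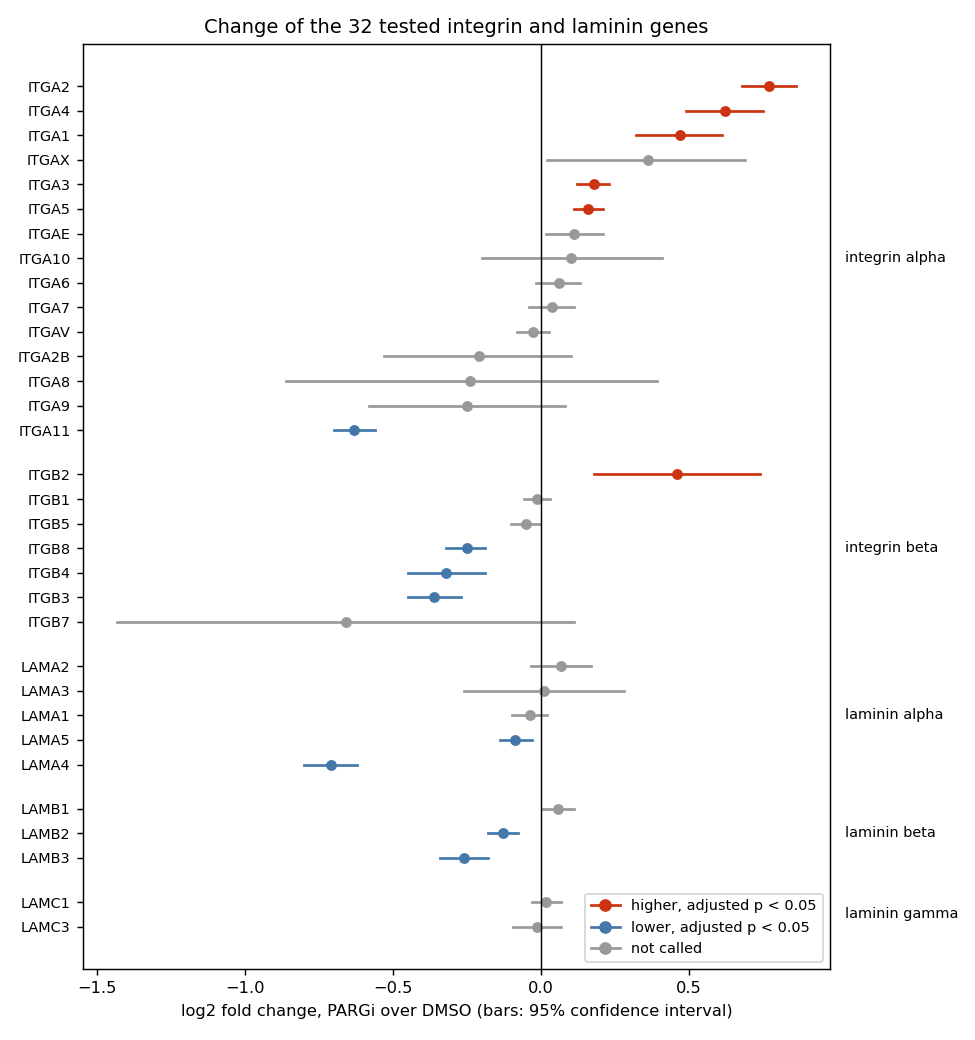
The horizontal axis gives the log2 fold change of PARGi over DMSO for the 32 tested genes, grouped by chain, and bars are 95% confidence intervals from edgeR. ITGA2 (0.77) and LAMA4 (-0.71) lie farthest from 0 among the called genes, while ITGB1, ITGAV, LAMC1 and LAMC3 lie near 0.

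The collagen-binding alpha chains, which all pair with ITGB1, went apart. ITGA2, the receptor chain for fibrillar and network collagens, rose by the largest factor on the list. Its level was 15.4, 16.7 and 16.3 CPM in the DMSO libraries and 28.3, 26.9 and 27.4 CPM in the PARGi libraries, with every PARGi library far above every DMSO library. The log2 fold change was 0.77 (SE 0.043, edgeR adjusted p = 3.99e-12), a rise of 70.4%. ITGA1, its neighbour on chromosome 5, was at 5.64, 5.57 and 5.85 CPM in DMSO and at 8.54, 7.59 and 7.53 CPM in PARGi. The groups were again apart, and the log2 fold change was 0.47 (SE 0.070, edgeR adjusted p = 2.52e-05). GENCODE places ITGA1 from 52787896 to 52959210 and ITGA2 from 52989326 to 53094779, both on the plus strand. PELO lies inside the ITGA1 locus on the same strand, shares 2.56% of its exonic bases, and was itself higher (26.4 against 29.9 CPM, edgeR adjusted p = 0.00140). How reads in those shared bases were counted is not given in the sources used here.

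ITGA11, the collagen receptor chain typical of mesenchymal cells, fell. Its 3 DMSO libraries stood at 64.8, 70.9 and 66.3 CPM and its 3 PARGi libraries at 43.4, 43.8 and 43.2 CPM, so that the lowest control lay well above the highest treated library. The log2 fold change was -0.63 (SE 0.033, edgeR adjusted p = 1.65e-12), a percent change of -35.4%. The mesenchymal markers COL1A2 and RUNX2 fell alongside, ALPL rose, COL1A1 and VIM gave no call, and their part in the results for ITGA11 and LAMA4 was not tested. ITGA10, the chain known from cartilage, averaged 1.57 ± 0.177 CPM in DMSO against 1.67 ± 0.299 CPM in PARGi without a call, with a 95% interval from -0.20 to 0.41 on the log2 scale. The summed level of the 4 chains was 8.79 ± 0.353 CPM per kilobase in DMSO and 8.17 ± 0.0660 in PARGi. Within that sum the share of ITGA11 was lower and that of ITGA2 higher in every PARGi library. ITGA11 made up 70.5%, 71.3% and 69.7% of this sum in the DMSO libraries and 48.5%, 49.7% and 48.8% in the PARGi libraries. ITGA2 made up 23.0%, 23.0% and 23.5% in DMSO and 43.4%, 41.9% and 42.5% in PARGi. Per kilobase, the ratio of ITGA11 to ITGA2 was 3.04 ± 0.0703 in DMSO and 1.15 ± 0.0335 in PARGi. These shares follow from the values that gave the calls and carry no test of their own.

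**Figure D3:**
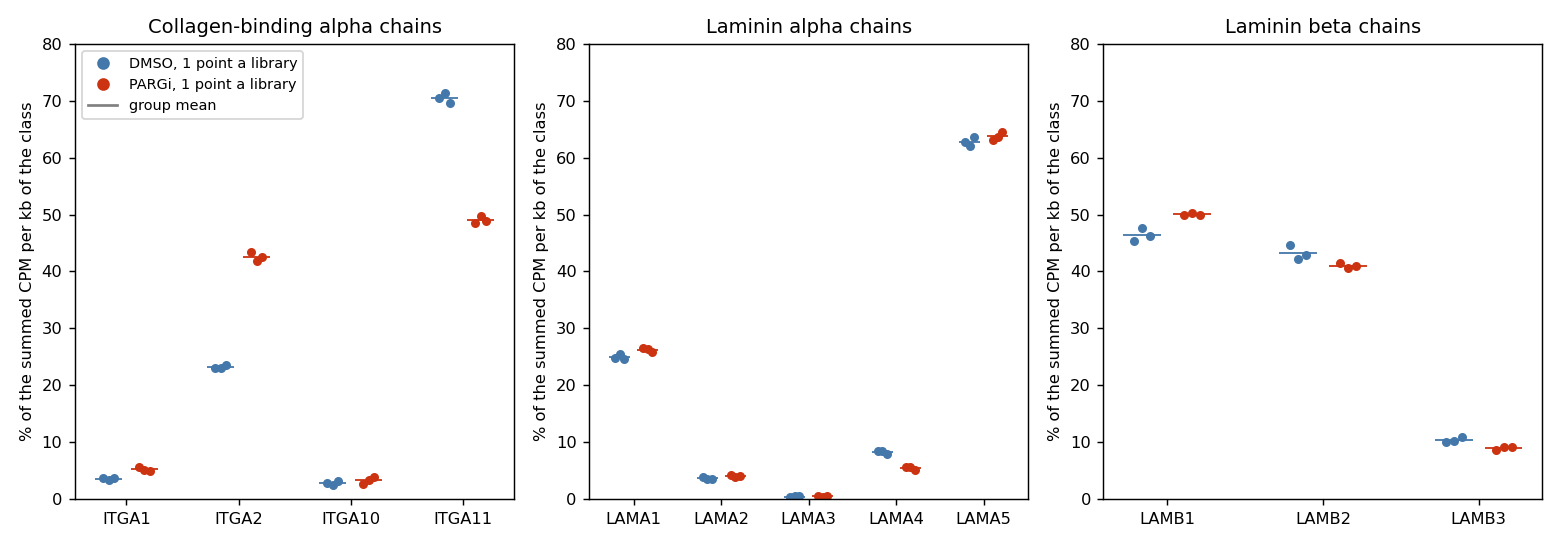
The vertical axis gives each gene's share, in percent, of the summed CPM per kilobase of its class, for collagen-binding alpha chains, laminin alpha chains and laminin beta chains. Points are libraries and lines are group means, and ITGA11 goes from 70.5% to 49.0% while ITGA2 goes from 23.2% to 42.6%.

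Of ITGA4, ITGA5, ITGA8 and ITGA9, alpha chains that bind fibronectin or related ligands, ITGA4 and ITGA5 were called higher. Over all genes tested 13.2% were called higher, or 20.8% at 5 CPM or more. The RGD-binding receptors built on ITGAV are given separately below. ITGA4, which binds fibronectin and the endothelial receptor VCAM1 and is best known from leukocytes, was at 7.52, 8.34 and 7.11 CPM in DMSO and at 11.7, 11.6 and 11.8 CPM in PARGi. The PARGi libraries were nearly equal and all higher, with a log2 fold change of 0.62 (SE 0.062, edgeR adjusted p = 6.88e-08). ITGA5, the main fibronectin receptor chain, had 127, 126 and 126 CPM in DMSO and 143, 142 and 139 CPM in PARGi. This was a smaller rise of 11.9%, also without overlap (log2 fold change 0.16, SE 0.025, edgeR adjusted p = 3.48e-05). ITGA9, which binds tenascin, averaged 1.45 ± 0.258 CPM in DMSO against 1.22 ± 0.130 CPM in PARGi, and ITGA8, which binds nephronectin, at 0.444 ± 0.185 and 0.385 ± 0.0782 CPM. Neither passed the test, and at these levels changes of up to -0.58 for ITGA9 and -0.86 for ITGA8 on the log2 scale lie within the 95% interval.

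Of ITGA3, ITGA6 and ITGA7, the alpha chains grouped here as laminin-binding, ITGA3 alone was called. ITGA3 had 693, 694 and 733 CPM in DMSO and 792, 814 and 790 CPM in PARGi, every PARGi library being above every DMSO library. Its log2 fold change was 0.18 (SE 0.025, edgeR adjusted p = 1.38e-05), which is a rise of 13.0% in the most abundant alpha chain. ITGA6 was at 46.1, 45.3 and 48.0 CPM in DMSO and 46.6, 51.2 and 47.5 CPM in PARGi, and the groups overlapped (log2 fold change 0.059, 95% interval from -0.016 to 0.13, edgeR adjusted p = 0.260). ITGA7 was at 96.6, 94.4 and 108 CPM in DMSO and 102, 105 and 99.2 CPM in PARGi, likewise with overlap (0.036, interval from -0.040 to 0.11, edgeR adjusted p = 0.537). The ITGA7 value rested on DMSO replicate 3. Without that library the log2 fold change was 0.095 with an edgeR adjusted p of 0.0162. ITGB4, which joins ITGA6 to form the receptor of hemidesmosomes, fell from 13.6, 13.0 and 12.3 CPM to 10.4, 11.4 and 9.38 CPM. Its groups did not overlap, and the log2 fold change was -0.32 (SE 0.064, edgeR adjusted p = 6.76e-04). Of the epithelial markers, KRT14 fell as well, CDH1 rose, EPCAM and KRT5 gave no call, and their part in the ITGB4 result was not tested.

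The RGD-binding receptors built on ITGAV showed lower levels of their rarer beta chains. ITGAV itself was at 286, 296 and 285 CPM in DMSO and 276, 289 and 285 CPM in PARGi, with overlapping groups (log2 fold change -0.027, interval from -0.080 to 0.026, edgeR adjusted p = 0.498). ITGB5 was at 423, 413 and 430 CPM in DMSO and 407, 410 and 404 CPM in PARGi. Its groups did not overlap, but the difference of -0.052 did not pass the test (SE 0.024, edgeR adjusted p = 0.127). ITGB3, which pairs with ITGAV on bone-resorbing and vascular cells and with ITGA2B on platelets, fell from 24.0, 25.4 and 24.1 CPM to 18.3, 19.5 and 19.4 CPM. The log2 fold change was -0.36 (SE 0.043, edgeR adjusted p = 8.80e-07). ITGB8, whose receptor with ITGAV binds latent TGF-beta, fell from 97.1, 103 and 97.1 CPM to 79.9, 85.5 and 83.7 CPM (a log2 fold change of -0.25, SE 0.031, edgeR adjusted p = 1.17e-06). In ITGB3 and ITGB8 alike the highest PARGi library stayed below the lowest DMSO library. ITGB3 shares 51.6% of its exonic bases with an overlapping gene on its strand, ENSG00000259753, which is listed at 0 in all 6 libraries. If reads in the shared part were left uncounted, the level of ITGB3 is too low by an unknown factor. ITGB6, the epithelial partner of ITGAV, had 5 to 11 counts a library and was not tested.

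ITGB1, the chain that most of these alpha chains need, gave no call. It was at 2462, 2499 and 2439 CPM in DMSO and 2443, 2428 and 2456 CPM in PARGi, with overlap between the groups. Its log2 fold change was -0.014 (edgeR adjusted p = 0.695), and the 95% interval of the change ran from -3.99% to 2.14%. Per kilobase, ITGB1 exceeded the sum of the 12 alpha chains it is known to pair with, at 410 against 157 CPM per kilobase in DMSO and 406 against 168 in PARGi.

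The beta chain of leukocytes ITGB2, its alpha partners ITGAL, ITGAM and ITGAX, the platelet chain ITGA2B and ITGB7 were low. ITGB2 rose, with 1.34, 1.19 and 1.26 CPM in DMSO and 1.82, 1.76 and 1.67 CPM in PARGi (a log2 fold change of 0.46, SE 0.14, edgeR adjusted p = 0.0152). Its raw counts were 76 to 94 in DMSO and 109 to 134 in PARGi, without overlap. The antisense gene ITGB2-AS1, which covers 4.46% of its exonic bases, averaged 0.0935 CPM in DMSO against 0.206 CPM in PARGi (edgeR adjusted p = 0.0466). Of its 3 alpha partners on the list, ITGAL and ITGAM were at or near the limit of detection. ITGAL had 0 to 3 counts a library and ITGAM 0 to 5, where a count of 0 allows up to 0.0372 to 0.0498 CPM by library depth, for counting error alone. ITGAX, the third partner, had 54 to 100 counts a library and stood at 0.140 CPM per kilobase in DMSO beside 0.186 for ITGB2. It averaged 0.989 ± 0.146 CPM in DMSO against 1.27 ± 0.0456 CPM in PARGi without a call (log2 fold change 0.36, edgeR adjusted p = 0.120). ITGA2B, the platelet chain, was at 1.53 ± 0.121 and 1.34 ± 0.249 CPM with no call (edgeR adjusted p = 0.351). ITGB7 was at 0.248 ± 0.0843 and 0.155 ± 0.0162 CPM (edgeR adjusted p = 0.219), and in PARGi replicate 3 its 0.137 CPM lay under the 0.145 CPM that the filter asks for. ZNF740, on the opposite strand, covers 42.1% of the exonic bases of ITGB7 and stood at 64.6 CPM in DMSO. The level of ITGB7 is too low if reads in the shared part were left uncounted. ITGAE, which pairs with ITGB7 to bind E-cadherin, stood at 14.0, 13.7 and 14.3 CPM in DMSO and 15.1, 14.8 and 15.6 CPM in PARGi. The groups of ITGAE did not overlap, but the call was not made (log2 fold change 0.11, SE 0.048, edgeR adjusted p = 0.0844). HASPIN, on the strand opposite to ITGAE and sharing 6.41% of its exonic bases, was higher in PARGi (14.1 against 16.2 CPM, edgeR adjusted p = 0.00346).

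**Figure D4:**
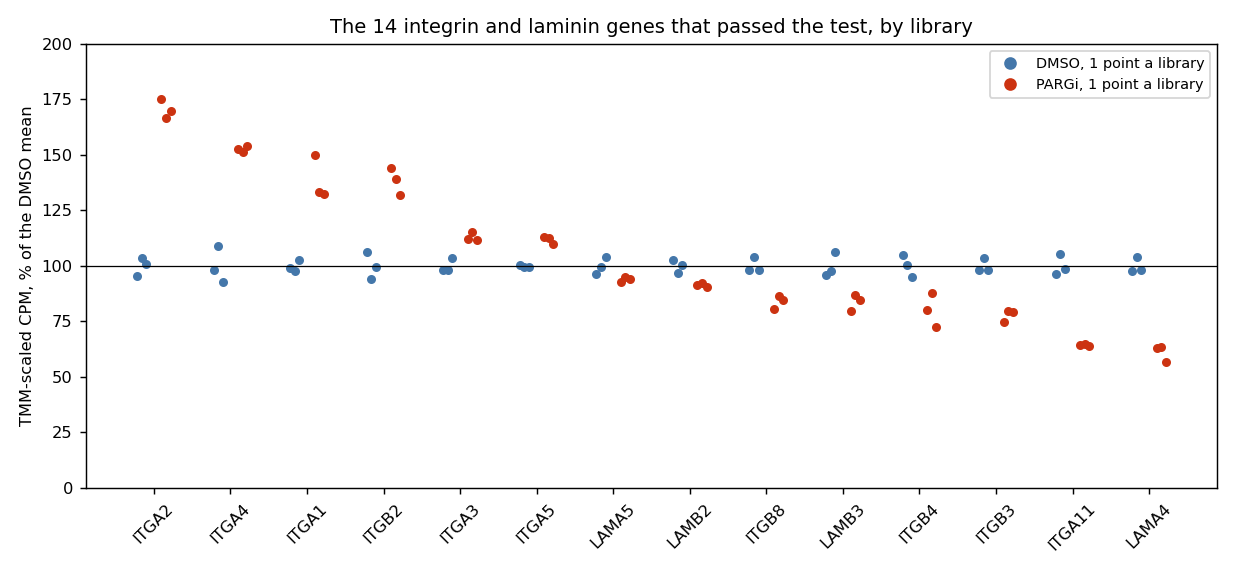
The vertical axis gives the TMM-scaled CPM of each library as a percentage of the gene's DMSO mean, for the 14 genes that passed the test, ordered by log2 fold change. The 3 PARGi points of each gene lie on one side of its 3 DMSO points, from ITGA2 (log2 fold change 0.77) to LAMA4 (-0.71).

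Laminin transcripts either fell or did not pass the test. LAMA4, the alpha chain of vessel and mesenchymal laminins, fell most of the 14 genes that passed the test. Its level was 34.4, 36.7 and 34.6 CPM in DMSO and 22.2, 22.4 and 20.0 CPM in PARGi, with a wide gap between the groups. The log2 fold change was -0.71 (SE 0.044, edgeR adjusted p = 1.73e-11), and the percent change was -38.9%. Its share of the laminin alpha level per kilobase went from 8.25% ± 0.322 to 5.44% ± 0.293. GENCODE 29 places LAMA4 between 112108760 and 112254939 of chromosome 6.

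LAMA5, the main alpha chain, was at 320, 330 and 344 CPM in DMSO and 308, 315 and 312 CPM in PARGi. The groups did not overlap but nearly touched, and the difference was small (log2 fold change -0.087, SE 0.027, edgeR adjusted p = 0.0188). This call was lost with an offset for GC content and length (-0.050, edgeR adjusted p = 0.0974), and without DMSO replicate 3 (-0.060, edgeR adjusted p = 0.0745) or any 1 of the 3 PARGi libraries (edgeR adjusted p = 0.0532 to 0.0844). LAMA1, the alpha chain of early embryonic basement membranes, was at 140, 151 and 148 CPM in DMSO and 144, 144 and 139 CPM in PARGi, with overlap (-0.038, interval from -0.098 to 0.021). LAMA2, the alpha chain of muscle and nerve, was at 14.4, 13.4 and 13.5 CPM in DMSO and 15.0, 14.1 and 14.2 CPM in PARGi, also with overlap (0.069, interval from -0.034 to 0.17). LAMA3, the epithelial alpha chain, was at 2.29 ± 0.395 and 2.30 ± 0.215 CPM (0.011, interval from -0.26 to 0.28).

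Of the beta chains, LAMB3, which belongs to the epithelial laminin anchored by hemidesmosomes, fell from 53.3, 54.2 and 59.0 CPM to 44.2, 48.2 and 47.0 CPM. The groups stood apart (log2 fold change -0.26, SE 0.038, edgeR adjusted p = 2.01e-05). The epithelial markers moved in both directions, as given above (KRT14 lower, CDH1 higher, EPCAM and KRT5 without a call), and their part in this result was not tested. LAMB2 fell by less, from 349, 329 and 341 CPM to 310, 313 and 308 CPM (log2 fold change of -0.13, SE 0.026, edgeR adjusted p = 4.61e-04). LAMB1 went the other way without a call: it was at 422, 440 and 436 CPM in DMSO and 443, 460 and 446 CPM in PARGi. Its groups did not overlap, the log2 fold change was 0.057 (SE 0.025, edgeR adjusted p = 0.103), and the call was made with the GC and length offset (0.065, edgeR adjusted p = 0.0318), under which 3 laminin genes were lower and 1 higher. Within the beta level per kilobase, LAMB1 went from 46.4% ± 1.09 to 50.1% ± 0.194, and LAMB2 and LAMB3 went from 43.2% to 41.0% and from 10.3% to 8.98%. LAMC1, the gamma chain of most laminins, had 382, 382 and 389 CPM in DMSO and 385, 390 and 392 CPM in PARGi, and the groups overlapped (0.017, interval from -0.031 to 0.066). LAMC3 had 25.0, 25.8 and 26.4 CPM in DMSO and 26.3, 25.4 and 24.9 CPM in PARGi, also with overlap (-0.013, interval from -0.095 to 0.068).

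The other genes of the adhesion system were read from 4 fixed lists. Of 33 adaptor and signalling genes at the inner face of integrins, all tested, 14 were called (42.4%), 9 higher and 5 lower, a balance that turned to 4 higher and 8 lower with upper-quartile scaling. The share over all genes tested was 24.3%, or 34.7% at 5 CPM or more, where 13 of 30 adaptor genes were called. Without DMSO replicate 1 the adaptor counts were 5 higher and 5 lower. PXN, which encodes the focal adhesion scaffold paxillin, rose from 160 ± 2.88 to 186 ± 4.27 CPM (log2 fold change 0.22, edgeR adjusted p = 7.59e-07). FERMT2, which encodes the integrin activator kindlin-2, fell from 175 ± 6.12 to 150 ± 3.15 CPM (-0.23, edgeR adjusted p = 1.56e-06). The tensins TNS3 and TNS1, which link beta chains to actin, fell by 0.20 and 0.18 on the log2 scale. TLN1, the talin that activates integrins, was not called (edgeR adjusted p = 0.167).

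Of 20 integrin ligands other than laminins and collagens, 14 were tested and 6 called, 3 higher and 3 lower, which is 42.9% beside 24.3% of all genes tested. At 5 CPM or more, 4 of 9 were called, beside 34.7% of all genes. The matricellular ligands CCN1 and CCN2 rose, from 374 ± 8.06 to 490 ± 12.5 CPM (log2 fold change 0.39) and from 315 ± 4.75 to 403 ± 6.60 CPM (0.36). Tenascin TNC, a ligand of ITGA9 and ITGAV receptors, fell from 571 ± 4.19 to 493 ± 6.21 CPM (-0.21), and EDIL3, an RGD ligand, from 793 ± 13.3 to 720 ± 10.4 CPM (-0.14). In edgeR, EDIL3 had the highest adjusted p among them, 9.71e-05. The most abundant ligand, fibronectin FN1, and the ITGA4 ligand VCAM1 gave no call, the first at an edgeR adjusted p of 0.105 and the second untested at 0.0157 CPM in DMSO.

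Of 16 partners of laminin in the basement membrane, all tested, 5 were called, 3 higher and 2 lower, and 8 were called with the GC and length offset, 6 higher and 2 lower. The main count is 31.2%, near the 24.3% of all genes tested and the 34.7% at 5 CPM or more, where 5 of 13 were called. Without DMSO replicate 3 it was 6 higher and 1 lower, and without PARGi replicate 1 or 3 it was 3 higher and 1 lower. SMOC1, a secreted calcium-binding matrix protein gene, fell from 71.9 ± 1.08 to 45.4 ± 1.99 CPM (log2 fold change -0.66, edgeR adjusted p = 3.60e-13), a fall of nearly the size of that of LAMA4. NTN1, a laminin-related secreted guidance factor, rose from 37.0 ± 2.24 to 47.8 ± 1.52 CPM (0.36), and FBLN1 (0.15) and the laminin-binding linker NID1 (0.12) rose by less. Of 11 other laminin receptors and integrin partners, 6 were called, 5 higher and 1 lower, all of them among the 11 at 5 CPM or more, which is 54.5% beside 34.7% of all genes at that level. Without PARGi replicate 2 or 3, and without DMSO replicate 1, no gene of this list was called lower, and without DMSO replicate 3 the count was 4 higher and 2 lower. The syndecans SDC1 and SDC4, heparan sulphate carriers that act beside integrins, rose from 56.1 ± 2.72 to 76.9 ± 1.96 CPM (0.45) and from 167 ± 4.79 to 209 ± 5.81 CPM (0.32). The tetraspanins CD82 and CD9 rose by 0.43 and 0.090, the call of CD9 being lost with upper-quartile scaling (0.065, edgeR adjusted p = 0.0541), while CD151, the tetraspanin that binds ITGA3 most tightly, was not called (-0.0050, edgeR adjusted p = 0.911).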

How the data were processed

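The authors deposited 1 file of raw counts by gene for each of the 6 libraries, in whole numbers and without normalisation. A stranded total RNA kit was used, per the labels' protocols. The submitters' processing notes name cutadapt 1.18, STAR 2.7.3a, SAMtools 1.9 and hg38, with no role or order. The counting strand, the annotation release and filters are not given in the sources used here. Of 241 genes lying at least 90% within exons of an abundant gene (at least 50 CPM) on the other strand, 218 had counts. The median over the 241 genes was 24, summed over the 6 libraries, against 41820 for the abundant genes. The counts were read as strand-specific, which this check cannot settle. Low counts would also arise in unstranded counting if reads shared between genes were left uncounted. Gene symbols were looked up by identifier (60463 of 60708 identifiers matched), and positions and exonic lengths from GENCODE 29 (GRCh38), which is not the authors' release, as 58440 identifiers were found in it. Promoter sequences are RefSeq's (GRCh38.p14).

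Differences were tested in edgeR 4.0.16 under R 4.3.3 with filterByExpr (minimum count 10), TMM, glmQLFit and the two-sided glmQLFTest on treatment, over 20409 genes. SE is the absolute log2 fold change over the square root of F. Alternatives used DESeq2 1.42.0, limma 3.58.1 (voom), DESeq2's size factors, upper-quartile scaling, no filter, a minimum of 10 counts throughout, coding genes alone, robust dispersions, a replicate block, a loess offset on GC and length (span 0.3), and each library left out. The fit was tested on simulated data. Figures used matplotlib 3.10.9. By rule, library values are given for each called member and each member averaging 5 CPM or more, and of each other list up to 4 called genes with the smallest p are named; TLN1, FN1, VCAM1 and CD151 were chosen after their values were seen. The members and lists were chosen with earlier results of these data known.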

Additional observations from a re-analysis of the deposited data

How the results depend on the processing

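Of the 14 called integrin and laminin genes, 13 kept their direction and call in all 17 alternatives, LAMA5 being the exception. ITGB2 kept its call narrowly, its highest adjusted p over these edgeR, DESeq2 and limma-voom fits being 0.0498. The count of called integrin genes was 10 or 11 throughout and that of laminin genes 3 or 4, and with the replicate number as a block they were 10 and 4, beside 4553 of all genes. The correlations of same-numbered deviations ran from -0.00784 to 0.0157, and those of differently numbered ones from -0.0286 to 0.0354. They showed no sign of pairing, but near-zero correlations over all tested genes, from 3 libraries a group, cannot exclude it. The block ended no call of a named gene. Leaving out 1 library gave 3607 to 4848 called genes in all, 10 to 11 integrins, 3 to 4 laminins, 10 to 13 adaptors, 4 to 7 ligands, 4 to 7 basement membrane partners and 4 to 6 receptors and partners. With upper-quartile scaling 40.5% of all calls were higher, beside 54.5% with TMM, and ITGB5 passed (-0.076, edgeR adjusted p = 0.0231). ITGB5 also passed among protein-coding genes alone (-0.067). With the GC and length offset 8 basement membrane partners were called. 6 members without a call changed sign: LAMA3 with upper-quartile scaling (-0.014), among protein-coding genes (-0.0048) and without DMSO replicate 1 (-0.12) or PARGi replicate 3 (-0.062), LAMC1 with upper-quartile scaling (-0.0074), LAMC3 without DMSO replicate 3 (0.0047) or PARGi replicate 3 (0.0059), ITGA7 without DMSO replicate 2 (-0.0010), ITGA8 without DMSO replicate 3 (0.040) and ITGA10 without PARGi replicate 3 (-0.018). With 1 library left out, the values ran from -0.12 to 0.12 for LAMA3, from -0.034 to 0.0059 for LAMC3, from -0.0010 to 0.095 for ITGA7, from -0.53 to 0.040 for ITGA8 and from -0.018 to 0.22 for ITGA10. The cause was not tested. With the longest transcript in place of exonic length, ITGA3 took 52.9% of the alpha level and ITGAV 16.9% in DMSO, and LAMA5 57.9% of the laminin alpha level. Depth limits the genes under 1 CPM, where the 95% intervals are widest.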

Other observations

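Levels of chains that are known to pair can be set side by side. ITGAE averaged 2.10 CPM per kilobase in DMSO against 0.0553 for its known partner ITGB7. The level of ITGB7 is too low if reads in the 42.1% of its exonic bases covered by ZNF740 were left uncounted. ITGB2, which rose, averaged 0.186 CPM per kilobase in DMSO, and its partner ITGAX averaged 0.140. Its partner ITGAL had 0 to 3 counts and ITGAM 0 to 5 counts a library. ITGB4 stood at 0.270 ± 0.0205 of the level of ITGA6 per kilobase in DMSO and at 0.207 ± 0.0144 in PARGi. LAMB3 stood at 11.8 CPM per kilobase in DMSO, while LAMA3, the alpha chain of the same epithelial laminin, stood at 0.156.

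Among the integrin chains that rose, only ITGA4 and ITGA5 are set beside ligands here. ITGA1, ITGA2, ITGA3 and ITGB2, which also rose, are not. The ligands VCAM1 and FN1 were chosen after their values were seen. For ITGA4, which rose, the ligand VCAM1 had 0 to 0.0314 CPM a library. FN1, a ligand of ITGA4 and of ITGA5, which also rose, averaged 1670 ± 107 CPM in DMSO against 1587 ± 44.1 CPM in PARGi and gave no call. The ratio of ITGA5 to ITGAV per kilobase was 0.473 ± 0.0108 in DMSO and 0.540 ± 0.0181 in PARGi.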
